A study of Rattus norvegicus with 6 samples.

Results

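Mature microRNAs (miRNAs) were followed in the dorsal root ganglia of diabetic and control rats, on probe sets whose class was inferred from their place in the deposited table. The table holds 1277 numeric probe-set IDs. Sorted upward, the last 59 IDs form a separate run after a gap of 451 and were kept out of both classes as likely controls. They stayed in the probe-set tests and in the shares of the whole table. The array design lists the rat mature miRNAs before 490 rat stem-loops, so the last 490 of the remaining 1218 rows were read as stem-loops and the rows before them as mature miRNAs. The mature set is therefore the whole table less 549 rows, or 57.0% of it. An ID gap of 5559 stands at the border between the 2 classes, but larger gaps of 6908 and 5828 lie inside the mature set, so the gap alone does not mark the border. Gaps of 723 and 593 lie inside the rows read as stem-loops, so the gap of 451 alone does not mark the last run either. Nothing in the files states the class of a row. The last 3 rows inside the border had mean signals of 0.40, 4.55 and 0.67, and the first 3 outside it had 2.58, 2.28 and 1.37, on the log2 scale.

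The diabetic group was 3 male Sprague-Dawley rats given 1 intraperitoneal injection of streptozotocin at 65 mg/kg, and the control group was 3 males of the same strain given citrate buffer, with starting weights of 180 to 220 g in both groups. Rats of the diabetic group were kept in the study at a blood glucose of 16.7 mM or more, measured 1 week after injection, and all ganglia were taken at 8 weeks. The L3 to L6 ganglia of both sides of each rat made 1 sample on 1 Affymetrix GeneChip miRNA 4.0 array, and the study asked which miRNAs differ between the groups. The labels give no genetic change in either group, and the age of the rats is not given in the sources used here. Every value is a log2 signal made by the authors with RMA, which corrects background, aligns the arrays and summarises the probes of a probe set.

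A miRNA gene is transcribed as a longer RNA that folds into a stem-loop, and the enzymes Drosha and Dicer cut from it a short duplex. A strand of the duplex is loaded into an Argonaute protein as the mature miRNA, where its seed pairs with messenger RNAs and lowers their translation or stability. The dorsal root ganglion holds the cell bodies of sensory neurons together with satellite glia, Schwann cells, vessels and immune cells. Streptozotocin destroys insulin-producing beta cells, and the resulting lack of insulin is widely used to model painful diabetic neuropathy. In such whole ganglia, fewer cells of a type and less miRNA per cell cannot be told apart.

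No table used here pairs the numeric IDs with miRNA names or sequences, and none of the mature IDs matched the RefSeq gene or miRNA tables (0 matches in each). No member is therefore named or shown as a sequence, the lists of neuronal, glial, blood and other miRNAs were not tested, and the tissue label could not be checked against markers. At most 2 IDs in each direction are printed, and other probe sets are described by rank.

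The mature set ran from signals near the floor to near the top of the scale. Means over the 6 arrays lay between -0.12 and 14.57. Of the members, 284 (39.0%) had a mean below 1 and 182 (25%) a mean from 1 to 5. A further 135 lay from 5 to 8, 83 from 8 to 11 and 44 at 11 or above. The 262 members with a mean of at least 5 are called bright here and the other 466 dim. On single arrays, 268, 269 and 262 members reached 5 in diabetic rats 1 to 3, against 272, 260 and 259 in control rats 1 to 3. In the same rats the median of all members was 2.61, 2.48 and 1.84 in diabetic rats, against 2.54, 2.51 and 2.27 in control rats. The ranges of both groups overlap in each of these measures, and diabetic rat 3 had the lowest median of the 6.

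The share of members at or above 5 was 36.6 ± 0.52% in diabetic rats and 36.2 ± 0.99% in control rats (SD, n = 3 each). The difference of 0.37 percentage points was smaller than either SD (exact permutation test, two-sided p = 0.8, where 3 against 3 rats cannot go below 0.1). RMA aligns the arrays to each other, which limits how far such a share can differ between them. The test therefore cannot show that equal numbers of miRNAs were expressed. Members near the line of 5 moved across it from rat to rat. In all, 241 members reached 5 on every array, 438 on none and 49 on some of them. Only 2 of the 49 were divided by group. Of these, 1 was below 5 in each diabetic rat and above it in each control rat, and is the first probe set described below. The other, a dim probe set singled out after its values were seen, had signals of 5.16, 5.13 and 5.19 in diabetic rats, against 4.22, 4.81 and 3.61 in control rats. Its difference of 0.95 (SE 0.29) gave an adjusted limma p of 0.583.

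Signals of mature probe sets stood above those of stem-loop probe sets on every array. The median of the mature set exceeded the median of the stem-loop set by 2.05, 1.89 and 1.26 in diabetic rats, against 1.96, 1.95 and 1.70 in control rats. The mean over the 6 arrays was 1.80 ± 0.29 (SD, n = 6; exact sign-flip permutation test, two-sided p = 0.03125, the smallest that 6 arrays allow). Of the mature probe sets 35.6% to 37.4% reached 5 on an array, against 10 to 12 of 490 stem-loop probe sets, or 2.04% to 2.45%. Signal also depends on the probes, which are the same on every array, so a constant offset between probes would give this sign and this p by itself. The difference is between distributions of signal and is not support for a difference in amounts of RNA. The distance between the classes was 1.73 ± 0.42 in diabetic rats and 1.87 ± 0.15 in control rats (SD, n = 3 each), a difference of -0.14 (exact permutation test, two-sided p = 0.8, smallest possible 0.1). It became 0.099 without diabetic rat 3, so its sign rests on that array.

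No mature probe set was called different between diabetic and control rats at an adjusted p below 0.05 (0 members, against 0% of the whole table; limma with Benjamini-Hochberg adjustment over all 1277 rows, smallest adjusted p 0.138). At an unadjusted p below 0.05 there were 73 members (10.03%), against 8.30% of the whole table and 31 of the 490 stem-loops (6.33%). Higher signals in diabetic rats made up 40 of the 73 and lower signals 33, against 4.78% and 3.52% of the whole table. A change of at least 1.5-fold was added in 33 members (4.53%), against 3.29% of the whole table. These were 16 higher and 17 lower, against 1.80% and 1.49% of the whole table. Of the 1277 rows, 14 differed by at least 2-fold at that p, and all were members, 4 higher and 10 lower. Stem-loop signals lay low, with medians of 0.56 to 0.59 and 75th percentiles of 1.05 to 1.18 on single arrays. Among the 284 members with a mean below 1, 0 differed by 2-fold at that p either, against 11 of the 182 members from 1 to 5. Members and stem-loops of like signal were not compared, and whether signal accounts for the 14 was not tested. The difference between the shares of the 2 classes was not tested.

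The split between higher and lower depends on how the arrays are aligned and on control rat 2. With repeated quantile normalization the 73 became 74, of which 32 were higher and 42 lower. After each array was centred on its own median of bright mature probe sets there were 110, of which 12 were higher and 98 lower. Centring subtracts 1 value from each array, so it lowered every difference by the same amount. It moved the median difference of all 1277 probe sets from -0.0011 to -0.16, and the median of the bright members from 0.027 to -0.13. The swing to lower signals after centring therefore follows by construction. For changes of at least 1.5-fold the split was 14 higher and 19 lower after repeated quantile normalization, and 6 higher and 47 lower after centring. Without control rat 2 the count of 73 became 116, 44 higher and 72 lower, and 49 of the 116 were among the 73.

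Bright members held 32 of the 73, or 12.2% of the 262, against 11.1% of all bright rows in the table. Of the 11 bright stem-loop probe sets, 3 (27.3%) were at that p. The share of all bright rows is lowered by bright rows of the last run, the likely controls. It therefore shows no excess among the bright members. In the deposited values 20 of the 32 bright members were higher and 12 lower in diabetic rats. Repeated quantile normalization gave 11 higher and 22 lower, and centring gave 5 higher and 44 lower. Without control rat 2 there were 66, of which 26 were higher and 40 lower. Without diabetic rat 1 there were 20, and without diabetic rat 2 there were 19. Dim members held the other 41, or 8.80% of the 466, against 7.38% of all dim rows. They were 20 higher and 21 lower, with differences from -2.50 to 1.59. No background or detection values were used, so how many dim signals lie above background is not known.

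The groups did not overlap, with every diabetic rat above or below every control rat, in 99 members (13.6%), against 13.7% of the whole table. They were 52 higher and 47 lower, which became 52 higher and 58 lower of 110 after repeated quantile normalization and 17 higher and 150 lower of 167 after centring. Among bright members this was so for 45 (17.2%), against 16.2% of all bright rows and 5 of the 11 bright stem-loop probe sets (45.5%). Bright rows of the last run lower the share of all bright rows here too. Of these 45, 30 were higher and 15 lower in the deposited values, 26 higher and 27 lower of 53 after repeated quantile normalization, and 10 higher and 74 lower of 84 after centring. In the deposited values both shares are near those of the whole table.

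Among bright members at an unadjusted p below 0.05, the lower signal that differed most was that of probe set 20501528. Its log2 signals were 4.96, 4.95 and 4.84 in diabetic rats, against 6.78, 6.10 and 6.78 in control rats. The diabetic rats nearly coincided and lay below the lowest control rat, which was control rat 2. The difference was -1.64 (SE 0.21, 95% confidence interval -2.13 to -1.15), or 3.12-fold lower in diabetic rats, with an adjusted limma p of 0.138. With centring, which lowers every difference by the same amount, the difference was -1.80 at an adjusted limma p of 0.00974. With repeated quantile normalization it was -1.72 at 0.0176, with array weights -1.73 at 0.0286, and without control rat 2 -1.86 at 0.0135. Tested among bright rows only, it gave an adjusted limma p of 0.0392, but it counts as bright only through the control rats, since its mean was 4.92 in diabetic and 6.56 in control rats, so that p is no independent support. Over all alternatives the adjusted p ran from 0.00974 to 0.618, the highest without control rat 1.

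The next was probe set 20501530. Its signals were 5.57, 6.03 and 6.23 in diabetic rats, against 7.26, 7.69 and 6.37 in control rats. The groups did not overlap, but control rat 3 lay only just above diabetic rat 3. The difference was -1.17 (SE 0.35, 95% confidence interval -2.0 to -0.33) with an adjusted limma p of 0.583. It ranged from -1.54 to -0.87 over the alternatives.

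The third had signals of 6.59, 6.48 and 6.10 in diabetic rats, against 7.65, 7.54 and 7.39 in control rats. Here the control rats were the tighter group, the SD being 0.26 in diabetic rats and 0.13 in control rats. Its difference of -1.13 (SE 0.17) gave an adjusted limma p of 0.199, which became 0.0398 when bright rows alone were tested. It reached 0.618 without control rat 1. The fourth overlapped between groups, with 5.20, 5.43 and 4.90 in diabetic rats, against 6.26, 5.42 and 6.46 in control rats. Control rat 2 was at the level of diabetic rat 2.

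The fifth and the sixth carry consecutive IDs and lie far apart in signal. The fifth had signals of 5.33, 5.90 and 5.66 in diabetic rats, against 6.41, 6.14 and 6.29 in control rats. The sixth had 11.75, 11.86 and 12.03 in diabetic rats, against 12.49, 12.72 and 12.25 in control rats. In both, every diabetic rat was below every control rat. Their differences were -0.65 (SE 0.18) and -0.61 (SE 0.17), each with an adjusted limma p of 0.583. The sixth is the brightest of the lower probe sets. The seventh to the tenth differed by -0.58, -0.57, -0.52 and -0.40, with means over all arrays from 7.18 to 10.41, and none overlapped between groups. The other 2 of the 12 lower bright members differed by -0.40 and -0.39.

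In the other direction, 0 bright members at that p differed by 2-fold. The higher signal that differed most among bright members was that of probe set 20504247, with 6.08, 5.89 and 5.36 in diabetic rats, against 5.29, 5.38 and 4.43 in control rats. The groups overlapped, and control rat 3 lay well below the other 5 arrays. The difference of 0.74 (SE 0.30, 95% confidence interval 0.021 to 1.46) gave an adjusted limma p of 0.583. Without control rat 3 it was 0.44.

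Probe set 20501534 followed, with 8.87, 8.40 and 8.52 in diabetic rats, against 7.94, 7.96 and 7.72 in control rats. All diabetic rats were above all control rats. The difference of 0.72 (SE 0.17, 95% confidence interval 0.32 to 1.12), or 1.65-fold, gave an adjusted limma p of 0.472 and ranged from 0.57 to 0.82 over the alternatives. The third had 6.81, 6.68 and 6.68 in diabetic rats, against 5.81, 6.18 and 6.06 in control rats. Its difference of 0.71 (SE 0.14) had the smallest adjusted p of the higher bright members, 0.395 in limma, and 0.0992 when bright rows alone were tested. The groups were separate there too.

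The sixth of the higher probe sets had the tightest control group of the 10. Its signals were 7.59, 7.31 and 7.34 in diabetic rats, against 6.84, 6.80 and 6.83 in control rats. The difference of 0.59 (SE 0.13) gave an adjusted limma p of 0.441. The ninth and the tenth carry consecutive IDs. The ninth had 12.69, 12.65 and 12.69 in diabetic rats, against 12.07, 12.46 and 11.97 in control rats. The tenth had 6.26, 6.25 and 6.18 in diabetic rats, against 5.76, 5.95 and 5.50 in control rats. In both, the diabetic rats nearly coincided, the control rats were spread out below them, and control rat 2 was the highest control. Their differences were 0.51 (SE 0.16) and 0.49 (SE 0.15), each with an adjusted limma p of 0.583. The remaining 4 of the 10 differed by 0.53 to 0.63, and 1 of them, the fifth, overlapped between groups and had a difference of 0.38 without control rat 3, against 0.59 with it. The other 10 of the 20 higher bright members differed by 0.31 to 0.48.

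The 3 members with the highest signal overlapped between groups. The brightest had 14.53, 14.56 and 14.46 in diabetic rats, against 14.65, 14.55 and 14.65 in control rats. The second had 14.24, 14.25 and 14.25 in diabetic rats, against 14.43, 14.19 and 14.47 in control rats. The third had 14.28, 14.23 and 14.21 in diabetic rats, against 14.33, 14.24 and 14.25 in control rats. No group was wholly above or below the other. The 95% confidence intervals of the differences ran from -0.38 to 0.18, from -0.43 to 0.20 and from -0.31 to 0.25, so a change of 1.5-fold lies outside all of them in the deposited values. With centring the differences were -0.26, -0.27 and -0.19, and the interval of the second, from -0.60 to 0.047, reaches past 1.5-fold. These signals lie near the top of the scale, and whether they are compressed there was not tested.

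Bright mature probe sets varied less among the diabetic rats than among the control rats. The median SD over the 262 was 0.12 in diabetic rats and 0.25 in control rats (n = 3 each), and 208 of the 262 (79.4%) had the smaller SD in diabetic rats. An SD above 0.5 was seen for 6 members in diabetic rats and 25 in control rats. The gap widened in relative terms with signal. From 5 to 8 the median SD was 0.17 in diabetic and 0.30 in control rats, from 8 to 11 it was 0.11 in diabetic and 0.24 in control rats, and at 11 or above it was 0.047 in diabetic and 0.17 in control rats. In the 466 dim members it was 0.27 in each group, and control rats had the larger SD for 231 (49.6%). The pattern is not particular to mature probe sets: all 11 bright stem-loop probe sets had the smaller SD in diabetic rats, the medians being 0.061 in diabetic rats and 0.23 in control rats. With 3 rats a group this is a description of these 6 arrays, without a test.

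Pairs of rats show where this spread lay. Over the 262 bright members the median absolute gap between 2 diabetic rats was 0.11 for rats 1 and 2, 0.17 for rats 1 and 3 and 0.15 for rats 2 and 3. Between 2 control rats it was 0.20 for rats 1 and 3, 0.29 for rats 1 and 2 and 0.43 for rats 2 and 3. Each control pair was thus farther apart than any diabetic pair. Between a diabetic and a control rat the median gap was 0.20 to 0.34, so control rats 2 and 3 were farther from each other than from any diabetic rat. A gap of at least 2-fold was seen for 0 to 6 members within the diabetic group and for 2 to 19 members within the control group.

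Control rat 2 had lower bright signals than the other controls, by a median of 0.22 against control rat 1 and 0.27 against control rat 3. Centring the arrays removes such a shift. The mean gap within a group was then 0.14 in diabetic rats and 0.24 in control rats, where the deposited values gave 0.14 in diabetic rats and 0.31 in control rats. Repeated quantile normalization gave 0.14 in diabetic and 0.24 in control rats. Without control rat 2 it was 0.14 in diabetic rats, against 0.20 for the remaining pair of control rats.

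Precision followed signal. The 95% confidence interval of the difference lay wholly within 2-fold for 225 of the 262 bright members (85.9%) and within 1.5-fold for 121 (46.2%). At a mean of 11 or above these were 43 and 36 of 44 members, and the median SE was 0.14. From 1 to 5 they were 80 and 13 of 182 members, with a median SE of 0.32. The members from 1 to 5 also held 11 of the 14 that differed by at least 2-fold at an unadjusted p below 0.05. The other 3 were bright and lower in diabetic rats, and are the first to the third described above. The order did not extend below a mean of 1. There the median SE was 0.18, against 0.20 from 5 to 8, and the interval lay within 2-fold for 253 of 284 members. Of these 284, 0 differed by 2-fold at that p.

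Mature IDs fell into 9 runs separated by gaps of more than 400, and signal differed between runs. The run with the lowest IDs held 342 members, of which 170 (49.7%) were bright. The next 4 runs in ID order held 77, 97, 54 and 110 members, with 48.1%, 35.1%, 16.7% and 3.64% bright. The last 4 runs held 48 members in all, 43 of them in 1 run, with 8 bright. Probe sets at an unadjusted p below 0.05 made up 10.2%, 10.4%, 12.4%, 3.70% and 7.27% of the first 5 runs. In the run of 43 there were 8 (18.6%), of which 7 were lower and 1 higher in diabetic rats. This run was singled out after its values were seen, and the difference between runs was not tested. It holds the fifth and the sixth lower and the third higher bright probe set described above. A pair of dim members in the lowest run had identical values on all 6 arrays, so they are not separate measurements.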

How the data were processed

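Small RNA signals were measured on 6 Affymetrix GeneChip miRNA 4.0 arrays, 1 per rat. The authors deposited log2 signals that the submitters' processing notes trace to RMA and Affymetrix Expression Console. For versions, options and detection calls, nothing is given in the sources used here. About 1 µg of total RNA was tailed and labelled with biotin, per the labels' protocols. No scanner files were used, so signal over background is unknown and precision is limited by the number of arrays.

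Members are rows 1 to 728 of 1277 in ID order, a class inferred from order and counts. The main test was limma 3.58.1 under R 4.3.3, with lmFit and eBayes over the 6 arrays, two-sided and without a block. It was fitted on the whole table with Benjamini-Hochberg adjustment over it and a threshold of 0.05. No further normalization was applied. Single values per array were compared with exact permutation tests. Before use the fit was run on simulated normal values with equal spread in both groups and changes of at least 2-fold in bright rows. The present data differ from that setting, since bright signals were more spread in control rats and most differences described were smaller. Members, thresholds and lists were chosen with earlier results of these data known. The probe sets described were the 10 with the largest difference in each direction among bright members at an unadjusted p below 0.05, and the 3 with the highest mean. The miRNA lists needed names and were not tested. Alternatives changed the block, the alignment of arrays, the filter on dim rows, the moderation, array weights, the border row by 10 either way, and each array in turn. Leaving out both arrays numbered 3, and the measures of spread and overlap between rats under each alignment, were added after seeing the data.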

Additional observations from a re-analysis of the deposited data

How the results depend on the processing

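By limma, 0 mature probe sets passed the adjusted threshold of 0.05 and 73 were at an unadjusted p below it. The 0 became 2 when the replicate block was added and 2 when only means of at least 5 were tested. The filter's 2 include probe set 20501528, which passes it only through the control rats. The other is the third lower probe set, whose adjusted p relies on 20501528 ranking ahead of it. Repeated quantile normalization, centring and array weights each gave 1. All of these were lower in diabetic rats. The count was 0 to 1 with an array left out, the 1 without control rat 2. The 73 became 110 with centring and 38 with means of at least 5, and was 53 to 116 with an array left out. The 33 that also differed by at least 1.5-fold became 53 and 12, and 31 to 65. With means of at least 5 fewer rows were tested, and centring lowered every difference by the same amount by construction. The cause of the other changes was not tested. The 32 bright members became 18 without both arrays numbered 3, 53 with array weights and 49 with centring. Among the 20 bright probe sets described by size, 0 of 240 alternative differences changed sign. This is no sign of stability, since 60 of them leave the difference as it is and choice by size favours a kept direction. Of the 240, 6 had an adjusted p below 0.05, from 2 of the probe sets.

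The rat number was not shown to pair the rats. With each group's mean subtracted, rats of equal number had a correlation of -0.040, 0.13 and 0.10 over all members and of 0.11, -0.038 and 0.32 over the bright ones, and 4 and 3 of the 6 rats correlated best with their own number. With the replicate block 73 members were at an unadjusted p below 0.05, and the 2 calls past the adjusted threshold were both dim.

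The distance between mature and stem-loop medians was 1.75 to 1.91 with an array left out, where 5 arrays cannot go below p = 0.0625 in the exact permutation test. Its difference between diabetic and control rats was -0.30 to 0.099, and that of the median gap between rats of a group was -0.29 to -0.060. Moving the border by 10 rows gave 72 and 73 members at an unadjusted p below 0.05, and 0 past the adjusted threshold, where none could be lost. Without signal over background, the dim members cannot be divided into detected and undetected.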

Other observations

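Which rat of a group lay nearest to the other group was counted over the 262 bright members, as a description of these arrays. Among the control rats it was rat 2 for 118 members (45.0%), rat 1 for 93 and rat 3 for 51. Among the diabetic rats it was rat 3 for 102 (38.9%), rat 2 for 93 and rat 1 for 67. The 20 bright members with higher signals in diabetic rats at an unadjusted p below 0.05 had diabetic rat 3 nearest to the controls in 15. In these 20, control rat 2 was nearest to the diabetic rats in 8 (40%). For the 12 with lower signals control rat 2 was nearest to the diabetic rats in 8, and diabetic rat 3 was nearest to the controls in 3 (25%). Over the 262, diabetic rat 3 read lower than diabetic rats 1 and 2, by medians of 0.11 and 0.12. Control rat 2 read lower than control rats 1 and 3, by medians of 0.22 and 0.27. Whether these shifts account for the counts was not tested.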
